A study of Mus musculus with 2 samples.

Results

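Of the 39986 mouse piRNA entries counted in this small RNA study, 90 had a read in either library, and 3 of these lie at places that are annotated as a miRNA hairpin and as a snoRNA or scaRNA at once. They are mmu_piR_028252 (Mir1839), mmu_piR_035888 (Mir3068) and mmu_piR_010309 (Mir1843b and Scarna3a). The members were chosen by this double annotation, with their reads and ends already known, so everything given on them describes these libraries. The study sequenced small RNA of GC-1 cells, an immortalised mouse spermatogonial line. The toxin studied is MC-LR (microcystin-LR), a cyanobacterial peptide that inhibits protein phosphatases. The control library is of cells at 0 nM MC-LR, and the exposed library of cells at 500 nM, both over 24 h (marked control and MC-LR in the plots). Both groups were grown in DMEM with serum, and no other agent or allele is named. Because the tables hold piRNA entries only, markers of the cell type could not be looked at.

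Each group is 1 library, so there is no test of MC-LR against control and no replicate check. Reads listed under a piRNA number 244066 in the control library and 359871 in the exposed one. Levels are given as counts per 1000000 piRNA reads (CPM), on which a single read weighs 4.10 (control) or 2.78 (exposed). All intervals are exact 95% intervals that cover counting error only, and PCR copies without molecular identifiers are not independent molecules. mmu_piR_000691, a 5S ribosomal RNA fragment and the most abundant entry, weighs on every CPM value through the total. It had 875825 CPM in the control and 913538 in the exposed library. All other piRNAs together held 12.4% and 8.65% of the reads.

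A miRNA is cut from a hairpin precursor by the nucleases Drosha and Dicer, and the position of its 5′ end fixes the seed, the bases that pair with target messages. H/ACA snoRNAs are built of hairpins followed by a short tail with the sequence ACA, and guide the conversion of uridine to pseudouridine in ribosomal RNA. The scaRNAs are their relatives in Cajal bodies, where they guide modification of spliceosomal RNA. Some H/ACA RNAs are known to be cut into miRNA-like small RNAs. piRNAs, by contrast, bind PIWI proteins of the germ line and are made without Dicer.

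The hairpins are printed first because they show on which arm each piRNA entry lies. The piRNA is in capitals in each hairpin, 5′ to 3′, from RefSeq (GRCm38.p6).
Mir1839 hairpin, chr7:81529916-81529988, plus strand: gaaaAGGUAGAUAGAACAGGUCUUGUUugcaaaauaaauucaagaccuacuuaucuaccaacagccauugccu
Mir3068 hairpin, chr12:87437679-87437757, minus strand: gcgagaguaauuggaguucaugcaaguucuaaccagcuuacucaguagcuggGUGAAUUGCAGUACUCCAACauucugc
Mir1843b hairpin, chr1:159340358-159340423, plus strand: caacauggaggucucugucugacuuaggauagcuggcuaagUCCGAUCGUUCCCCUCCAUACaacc
mmu_piR_028252 occupies bases 5 to 27 of 73, on the 5′ arm. mmu_piR_035888 occupies bases 53 to 72 of 79, and mmu_piR_010309 bases 42 to 62 of 66, both on the 3′ arm.

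The snoRNA and scaRNA entries show how far the annotations overlap, with the stretch shared with the miRNA hairpin in capitals (GENCODE M21, GRCm38).
Mir1839 scaRNA entry, chr7:81529855-81529981, plus strand: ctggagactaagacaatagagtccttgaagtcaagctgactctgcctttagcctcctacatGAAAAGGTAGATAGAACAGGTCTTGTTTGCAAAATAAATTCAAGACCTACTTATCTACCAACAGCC
Mir3068 snoRNA entry, chr12:87437682-87437817, minus strand: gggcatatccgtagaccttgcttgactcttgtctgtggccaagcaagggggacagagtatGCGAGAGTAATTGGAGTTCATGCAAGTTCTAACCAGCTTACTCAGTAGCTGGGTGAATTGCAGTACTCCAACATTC
Scarna3a scaRNA entry, chr1:159340283-159340422, plus strand: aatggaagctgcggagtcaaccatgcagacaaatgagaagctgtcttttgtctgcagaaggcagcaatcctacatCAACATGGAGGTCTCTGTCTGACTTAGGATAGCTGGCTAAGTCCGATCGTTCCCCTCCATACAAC
The hairpin is the 3′ part of the longer entry in each case. It covers the last 66 of 127 bases at Mir1839, the last 76 of 136 at Mir3068 and the last 65 of 140 at Scarna3a, and runs 7, 3 and 1 bases past its end. The letters ACA, searched on the sense strand of each entry in its last 8 bases, were found in 3 of these 3 entries, in 47.6% of all 1558 snoRNA and scaRNA entries and in 16.7% of 2202 miRNA hairpin entries. They are followed by 3, 3 and 2 bases. mmu_piR_035888 and mmu_piR_010309 both end with the first 2 bases of this ACA, while mmu_piR_028252 ends well before it. Each longer entry held 1 detected piRNA, the one described here, so no read was listed for the 61, 60 and 75 bases upstream of the hairpins. Only reads inside a piRNA entry are listed, and whether any entry covers those bases was not looked at. The lack of reads there therefore does not show that no fragment was made.

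**Figure D1:**
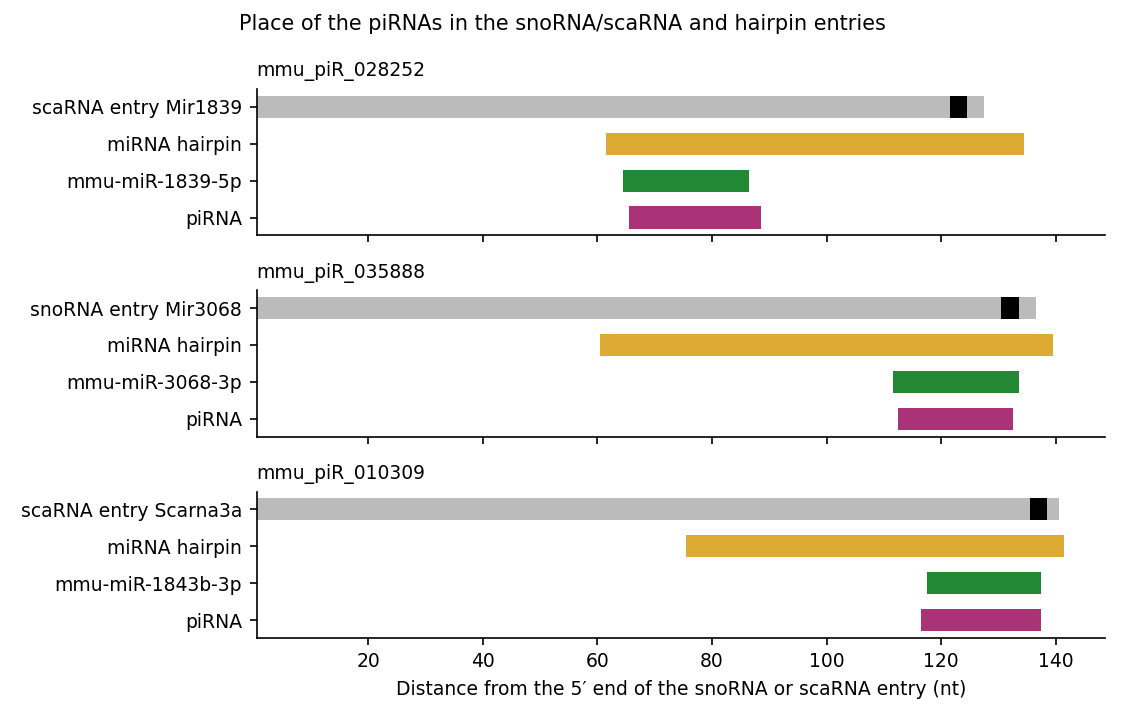
Position of each piRNA (purple), the RefSeq mature miRNA of the same arm (green) and the miRNA hairpin (yellow) along the snoRNA or scaRNA entry (grey, last ACA in black). The horizontal axis is the distance in nt from the 5′ end of that entry, and each hairpin covers its 3′ part, with mmu_piR_028252 on the 5′ arm and the other two on the 3′ arm next to the ACA.

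The host genes differ. mmu_piR_028252 (chr7:81529920-81529942, plus strand) lies in exon 2 of the long noncoding RNA 2900076A07Rik, besides both Mir1839 entries. mmu_piR_035888 (chr12:87437686-87437705, minus strand) lies in an intron of Alkbh1, which encodes a nucleic acid demethylase, and in the noncoding transcript Gm29362, which nearly copies the snoRNA entry. mmu_piR_010309 (chr1:159340399-159340419, plus strand) lies in an intron of Cop1, which encodes a ubiquitin ligase. All coordinates are GRCm38, from exact matches to annotated transcripts and hairpins, and not from the build of the authors.

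None of the piRNA entries begins at the base where RefSeq puts the mature miRNA. The pairs are printed with bases 2 to 8, the seed of a miRNA, in capitals.
mmu-miR-1839-5p: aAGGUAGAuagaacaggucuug
mmu_piR_028252: aGGTAGATagaacaggtcttgtt
mmu-miR-3068-3p: gGUGAAUUgcaguacuccaaca
mmu_piR_035888: gTGAATTGcagtactccaac
mmu-miR-1843b-3p: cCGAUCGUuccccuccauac
mmu_piR_010309: tCCGATCGttcccctccatac
mmu_piR_028252 begins 1 nt downstream of miR-1839-5p and ends 2 nt past it. mmu_piR_035888 begins 1 nt downstream of miR-3068-3p and ends 1 nt before its end. mmu_piR_010309 begins 1 nt upstream of miR-1843b-3p and shares its 3′ end. The seeds of the 3 mature miRNAs, and bases 2 to 8 of the 3 piRNAs, differ from each other. None of these 6 is the seed of another mature miRNA among 1679 names in the RefSeq table.

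These offsets set what the tables could show. Every tag (distinct read sequence) lies inside its piRNA entry and is at most 3 nt shorter than it. A read that starts at the RefSeq 5′ end of miR-1839-5p or miR-3068-3p would reach outside the piRNA and could not be listed. The mature miR-1843b-3p, in contrast, is bases 2 to 21 of mmu_piR_010309 and could have been listed.

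mmu_piR_028252, the Mir1839 fragment, was the tenth most abundant piRNA of both libraries, with rank 10 in each. It had 535 reads or 2192 CPM in the control and 672 reads or 1867 CPM in the exposed library. It held 95.9% of the reads of the 3 piRNAs in the control (93.9 to 97.4) and 95.5% in the exposed library (93.6 to 96.9). Its reads therefore carry most of what can be said on ends and lengths.

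All 535 control reads and all 672 exposed-library reads of mmu_piR_028252 began at the same base, the first of the piRNA entry. Of 4 starts that the tables could list, 1 was seen. A count of 0 at the other starts allows a share of up to about 0.561% in the control and 0.446% in the exposed library. This limit is 3 reads of the total, a 1-sided approximation and not an exact interval. The lower bound for the leading 5′ end was 99.3% in the control and 99.5% in the exposed library. Reads from the RefSeq start, 1 nt upstream, lie outside this window and were not measured, so a single end is shown only among the starts that could be listed.

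The 3′ end of mmu_piR_028252 was spread over all 4 positions that could be listed. In the control, 202 reads were 22 nt long, 166 were 21 nt, 143 were 23 nt and 24 were 20 nt. In the exposed library the same lengths had 289, 197, 155 and 31 reads. The order of the 4 forms was the same in both libraries. The 22-nt form, which ends 1 nt past miR-1839-5p, led with 37.8% of control reads (33.6 to 42.0) and 43.0% of exposed-library reads (39.2 to 46.8). The 21-nt form, with the 3′ end of miR-1839-5p, held 31.0% (27.1 to 35.1) and 29.3% (25.9 to 32.9). The full 23-nt entry held 26.7% (23.0 to 30.7) and 23.1% (19.9 to 26.4).

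Between libraries, these shares differed by less than counting error allows to separate. The odds of the 22-nt form, MC-LR over control, had a ratio of 1.24 (0.980 to 1.58). The ratio was 0.822 (0.627 to 1.08) for the 23-nt form, 0.922 (0.715 to 1.19) for the 21-nt form and 1.03 (0.577 to 1.86) for the 20-nt form. Each interval includes 1. The mean read length was 21.87 nt in the control and 21.85 nt in the exposed library.

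**Figure D2:**
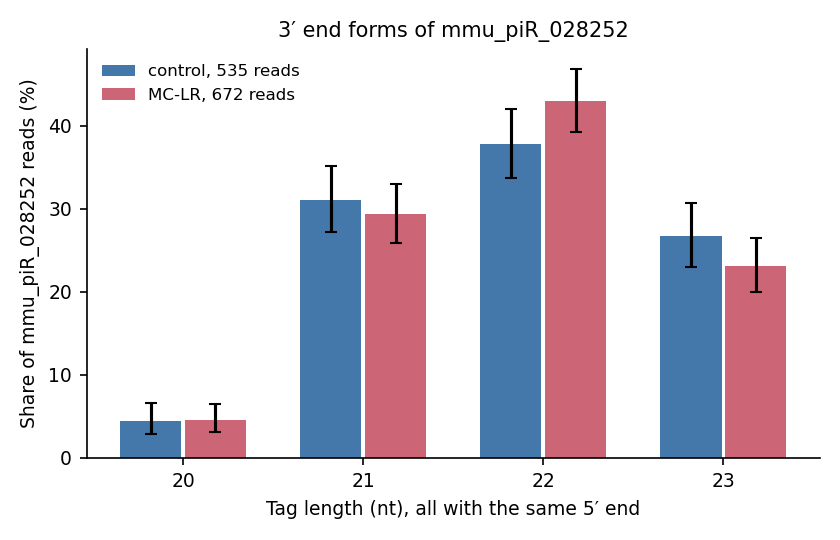
Share of mmu_piR_028252 reads (vertical axis, %) by tag length (horizontal axis, nt) in the control (blue, 535 reads) and the exposed library (red, 672 reads), with exact 95% counting intervals as error bars. The 22-nt form leads in both libraries and the intervals of the 2 libraries overlap at each length.

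mmu_piR_010309, from the 3′ arm of Mir1843b, had 21 reads or 86.0 CPM in the control and 17 reads or 47.2 CPM in the exposed library. It ranked 29 and 30 among the piRNAs. All 21 and all 17 reads began at base 1 of the entry, 1 nt upstream of the RefSeq start. The lower bound of that share is 83.9% in the control and 80.5% in the exposed library. No read began at base 2, the RefSeq start of miR-1843b-3p, although such a read could have been listed. At this depth a count of 0 allows up to 14.3% of the control reads and 17.6% of the exposed-library reads.

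Only 2 of the 10 possible tags of mmu_piR_010309 were seen. The full 21-nt sequence, which shares its 3′ end with miR-1843b-3p, had 14 control and 15 exposed-library reads. A 19-nt form, 2 nt shorter at the 3′ end, had 7 and 2 reads. The 20-nt form between them had none in either library. The 21-nt form thus made up 66.7% of control reads (43.0 to 85.4) and 88.2% of exposed-library reads (63.6 to 98.5), an odds ratio of 3.75 with an interval from 0.559 to 41.6 that includes 1. The mean read length was 20.3 nt in the control and 20.8 nt in the exposed library.

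Mir1843b has a near copy, Mir1843a, inside Scarna3b on chromosome 12. Positions counted from 1 at the 5′ end of mmu_piR_010309, the copy differs by C3T and C12A (base of the piRNA first). Both differences fall within every tag seen, so the listed reads match the Mir1843b copy exactly and the other with 2 mismatches. The RefSeq mature sequence of the copy is printed because its 5′ end lies at the base that corresponds to the start of the mmu_piR_010309 reads.
mmu-miR-1843a-3p: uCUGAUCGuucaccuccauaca

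mmu_piR_035888, from the 3′ arm of Mir3068, was scarce, with 2 reads or 8.19 CPM in the control and 15 reads or 41.7 CPM in the exposed library. Its rank was 61 in the control and 32 in the exposed library. Both control reads were the full 20-nt entry. In the exposed library 10 reads were the full entry, 4 were a 19-nt tag that starts at base 2, and 1 was a 19-nt tag that ends 1 nt early. The tag with the other 5′ end is printed with bases 2 to 8 in capitals.
mmu_piR_035888, tag from base 2: tGAATTGCagtactccaac
It begins 2 nt downstream of miR-3068-3p, and its bases 2 to 8 equal the seed of 1 other mature miRNA of the RefSeq table, miR-219b-3p.

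The leading 5′ end of mmu_piR_035888 held 2 of 2 control reads (lower bound 15.8%) and 11 of 15 exposed-library reads, or 73.3% (44.9 to 92.2). It was the only one of the 3 piRNAs with a second 5′ end. The share of that second end, 26.7% of exposed-library reads (7.79 to 55.1), rests on 4 reads, and the 2 control reads cannot show whether it differs there. The 3′ end was more uniform, with 14 of the 15 exposed-library reads, or 93.3% (68.1 to 99.8), at the last base of the entry. The mean read length was 20 nt and 19.7 nt.

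**Figure D3:**
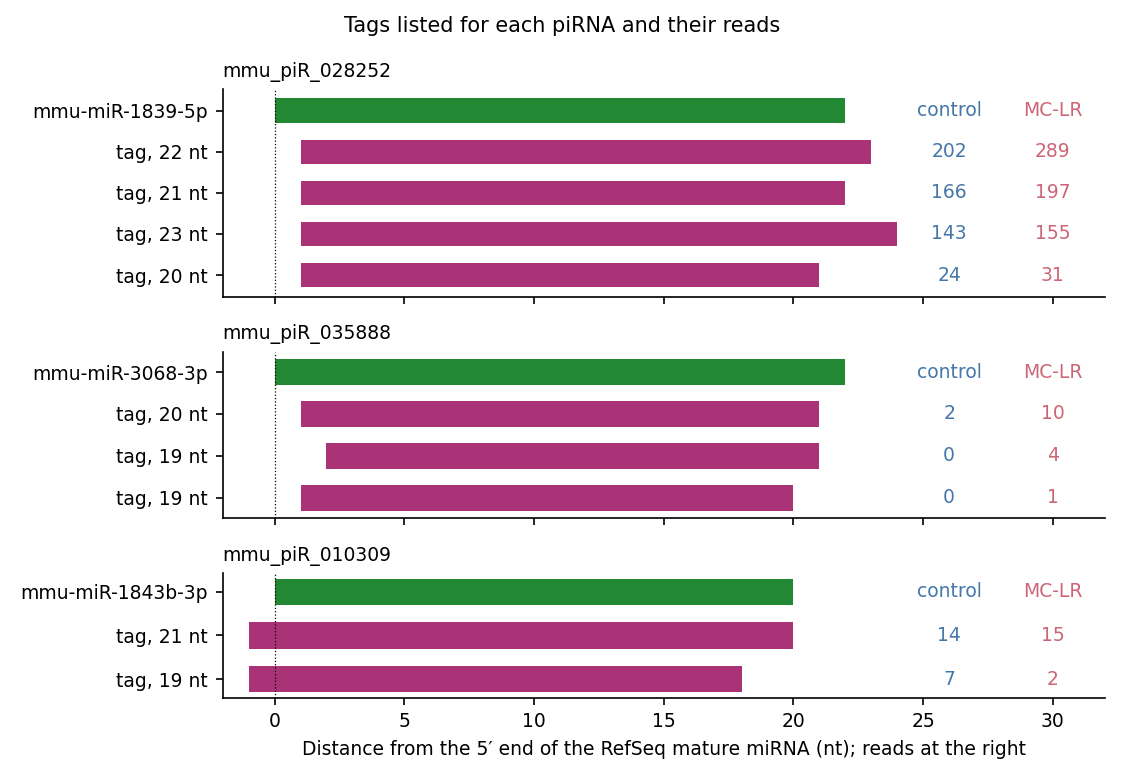
Each tag listed for the 3 piRNAs (purple) against the RefSeq mature miRNA of the same arm (green), on an axis of distance in nt from the 5′ end of that miRNA, with control reads (blue) and exposed-library reads (red) at the right. Tags of mmu_piR_028252 share a start 1 nt downstream, tags of mmu_piR_010309 a start 1 nt upstream, and mmu_piR_035888 has starts 1 and 2 nt downstream.

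To read these ends against fragments of 1 kind only, the other piRNAs with at least 20 reads in each library were taken: 5 that match a miRNA hairpin and no snoRNA, and 8 that match a snoRNA and no hairpin. mmu_piR_028252 is the only double-annotated piRNA that reached this depth. For these piRNAs too, reads that reach outside the entry are not listed. The shares below are therefore among listed reads and do not measure ends beyond the entries. In the 5 hairpin piRNAs the leading 5′ end held 99.73 to 100% of control reads and 99.82 to 100% of exposed-library reads. The lowest were Mir744 (mmu_piR_017405) in the control and Mir532 (mmu_piR_025576) in the exposed library. The highest, at 100% in both, were Mir872 (mmu_piR_020120), Mir1306 (mmu_piR_023189) and a second Mir532 fragment (mmu_piR_028975). In the 8 snoRNA piRNAs it held 69.6 to 99.2% of control reads, median 95.8%, and 52.2 to 98.7% of exposed-library reads, median 92.8%. The highest was Snord57 (mmu_piR_004086) and the lowest Snord15a (mmu_piR_000705). The hairpin range depends on the 20-read minimum. Below it, mmu_piR_033344 (Mir3102) had its leading start in 22 of 22 control reads and 16 of 18 exposed-library reads (88.9%). mmu_piR_000273, also in a hairpin, had it in 35 of 35 and 12 of 12.

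Among listed reads, the order at the 3′ end was the other way round. The leading 3′ end held 89.4 to 100% of control reads and 92.9 to 100% of exposed-library reads in the 8 snoRNA piRNAs. In the 5 hairpin piRNAs it held 41.2 to 100%, median 74.4%, and 41.4 to 98.8%, median 54.3%. With 100% at the leading 5′ end and 37.8% and 43.0% at the leading 3′ end, mmu_piR_028252 lay within or beside the range of the hairpin piRNAs and outside that of the snoRNA piRNAs at both ends. Its lower bound at the 5′ end, 99.3% in the control and 99.5% in the exposed library, was above the share of each of the 8 snoRNA piRNAs, although the interval of Snord57 in the control reached 99.5%. The pattern is not particular to hairpin piRNAs. mmu_piR_027673, which matched neither kind, had 100% at its leading 5′ end in both libraries and 51.4% and 43.3% at the 3′ end. mmu_piR_039147, also of neither kind, had 68.5% and 72.6% at the 5′ end and 95.1% and 93.5% at the 3′ end.

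The 8 snoRNA piRNAs are not of the H/ACA kind to which the double-annotated entries point by their tail. Of their entries, 0 have ACA in the last 8 bases, and 5 carry Snord names, used for box C/D snoRNAs. The kind of snoRNA and the double annotation therefore cannot be told apart in this comparison. mmu_piR_010309, with 1 start in 38 reads over both libraries, and mmu_piR_035888, with 2 starts in 17, are too scarce to be placed. Of the 4 hairpin piRNAs with a matched mature sequence, 3 led at the RefSeq start and Mir1306 led 2 nt downstream of it. The Mir1306 piRNA entry itself begins 2 nt downstream, so a read from its RefSeq start could not be listed. In all 4 the leading start was the first base of the entry, so these offsets follow where the entries begin.

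**Figure D4:**
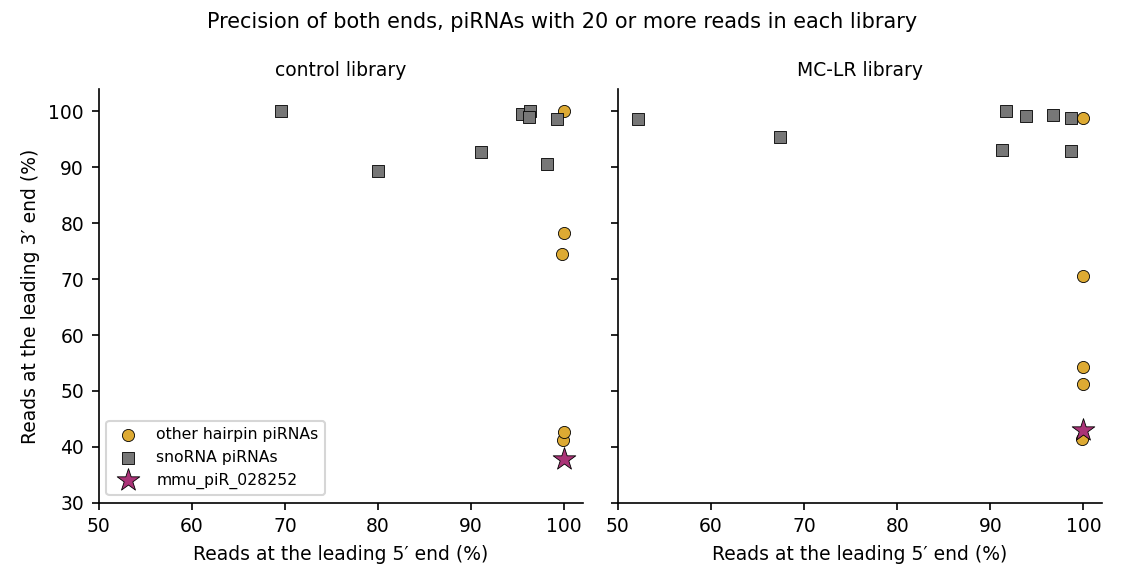
Share of listed reads at the leading 5′ end (horizontal axis, %) and at the leading 3′ end (vertical axis, %), left control and right MC-LR. Shown are piRNAs that match a hairpin or a snoRNA and have at least 20 reads in each library. Those that match neither are not drawn. Reads that reach outside a piRNA entry are not listed. The hairpin piRNAs (yellow) stand at the right edge with 3′ shares from 41.2 to 100%, the snoRNA piRNAs (grey) stand along the top, and mmu_piR_028252 (star) lies with the hairpin piRNAs at the lower right in both libraries.

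Between the libraries, mmu_piR_035888 was higher after exposure, on few reads, while mmu_piR_028252 and mmu_piR_010309 had ratios below 1 on the scale of all piRNA reads. In RNA from whole cultures, fewer cells with an RNA and less of it per cell cannot be told apart. Scaled to all piRNA reads, the CPM ratio, MC-LR over control, was 0.852 (0.759 to 0.956) for mmu_piR_028252, 0.549 (0.272 to 1.09) for mmu_piR_010309 and 5.09 (1.18 to 45.8) for mmu_piR_035888. A piRNA that reached 10 reads in a library was called higher with a ratio of at least 2 and an interval above 1, and called lower with a ratio of at most 0.5 and an interval below 1. All 3 had 10 reads in a library, and 1, mmu_piR_035888, was called higher. Among all 43 piRNAs with that depth, 6.98% (3 piRNAs) were called higher and 18.6% (8) lower. mmu_piR_035888 passed the minimum through the exposed library alone, where it is high, and its interval spans from 1.18 to 45.8, so its size is hardly known.

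The scale decides on which side of 1 the abundant member falls. For mmu_piR_028252 the ratio was 1.12 (0.9996 to 1.26) with edgeR TMM factors and 1.11 (0.987 to 1.24) with DESeq2 size factors, both with intervals that include 1. It was 1.22 (1.09 to 1.37) with the total without mmu_piR_000691. Once the 10 most abundant piRNAs were taken out of the total, it was 1.36 (1.22 to 1.53). mmu_piR_028252 is itself one of those 10. mmu_piR_010309 stayed below 1, at 0.714 to 0.880 over these scalings, with intervals that include 1. mmu_piR_035888 stayed above 1, from 6.61 (1.54 to 59.6) with DESeq2 to 8.15 (1.90 to 73.4) without the 10 most abundant. Each of its ratios rests on the same 2 control and 15 exposed-library reads. These scalings shift the median log2 ratio of the 43 piRNAs by 0.38 to 0.68. With TMM or DESeq2 factors 5 piRNAs were called higher and 3 lower. A minimum of 50 reads would leave mmu_piR_035888, and with it the only call among the 3, untested.

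**Figure D5:**
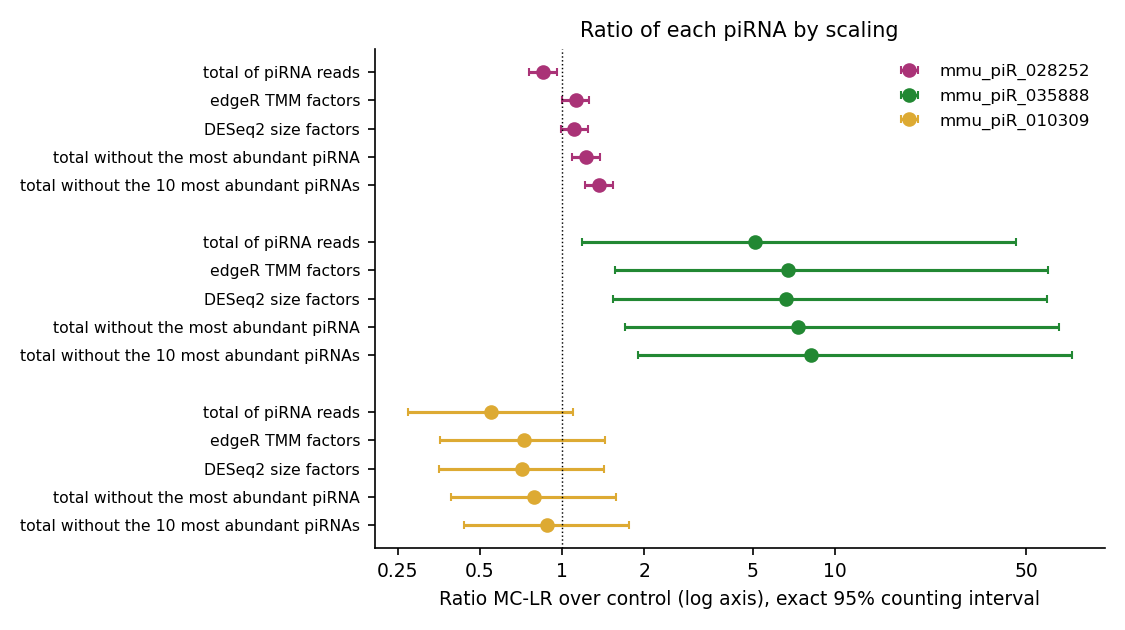
Ratio of MC-LR over control (horizontal log axis) for the 3 piRNAs under 5 scalings (vertical axis), with exact 95% counting intervals. mmu_piR_028252 moves from 0.852 to above 1, mmu_piR_035888 lies above 1 and mmu_piR_010309 below 1 under each scaling.

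Ratios between the 3 piRNAs within a library do not depend on the scale. For each read of mmu_piR_010309 there were 25.5 of mmu_piR_028252 in the control (16.5 to 41.5) and 39.5 in the exposed library (24.5 to 68.3). The change between libraries was a factor of 1.55 with an interval from 0.771 to 3.17, which includes 1. For each read of mmu_piR_035888 there were 267.5 of mmu_piR_028252 in the control (73.7 to 2215) and 44.8 in the exposed library (27.0 to 80.5), a factor of 0.167 (0.0185 to 0.726). For mmu_piR_010309 over mmu_piR_035888 the ratios were 10.5 (2.57 to 92.4) and 1.13 (0.532 to 2.44), a factor of 0.108 (0.0110 to 0.587). Both of the last intervals lie below 1 and both rest on the 2 control reads of mmu_piR_035888. With only the most abundant tag of each piRNA, the 2 factors were 0.286 (0.0302 to 1.37) and 0.214 (0.0202 to 1.32), with intervals that include 1. These are 3 ratios of the same 3 counts per library, so they are not independent of each other.

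Together the 3 piRNAs had 558 control reads and 704 exposed-library reads, or 0.229% and 0.196% of all piRNA reads, with a CPM ratio of 0.856 (0.765 to 0.958). That value is essentially the one of mmu_piR_028252. The other 23 detected piRNAs in miRNA hairpins, of which 12 had at least 10 reads in a library, had a summed CPM ratio of 0.644 (0.629 to 0.660), a median log2 ratio of -0.56, and 0 called higher with 3 called lower. The 10 in snoRNAs, 9 with that depth, had 0.759 (0.739 to 0.779), a median log2 ratio of -0.38, and 1 called in each direction. Over all 43 piRNAs the median log2 ratio was -0.40. These sums turn on the scale as well. Under the other 4 scalings, applied to the sums after seeing the data, the ratio was 1.11 to 1.37 for the 3 piRNAs, 0.838 to 1.03 for the other hairpin piRNAs and 0.986 to 1.22 for the snoRNA piRNAs. The log2 ratio was -0.23 for mmu_piR_028252, -0.87 for mmu_piR_010309 and 2.35 for mmu_piR_035888.

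The piRNAs with the nearest log2 ratio, out of 42 others and over these 2 libraries only, differed for each. For mmu_piR_028252 they were mmu_piR_022877 (Snord2), 0.05 apart with 123 and 160 reads, and mmu_piR_034793 (Gas5), 0.09 apart with 1542 and 1826 reads. For mmu_piR_010309 they were mmu_piR_020692 (Gcn1l1) with 228 and 183 reads and mmu_piR_033344 (Mir3102) with 22 and 18 reads, 0.01 and 0.02 apart. For mmu_piR_035888 the nearest were 0.45 and 1.0 apart, mmu_piR_000958 with 2 and 11 reads and mmu_piR_000619 with 4 and 15 reads.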

How the data were processed

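The deposited files of the authors hold raw counts per piRNA and per tag, with tag and piRNA lengths and sequences, for 1 library a group. The submitters' processing notes name build mm8. The piRNA collection, aligner, trimming and mismatch rule were not given in the sources used here. Tag counts summed to each piRNA count with 0 disagreements. Detected piRNAs were matched exactly to GENCODE M21 transcripts (exons only) and to RefSeq hairpins and mature miRNAs (GRCm38.p6). Near copies were searched with up to 3 mismatches in small RNA entries. Ends were counted from 1 at the piRNA 5′ end, and the leading end is the one with most reads over both libraries. Intervals are Clopper-Pearson, and conditional exact for odds ratios. The call rule was tested on simulated data with counting error only, without variation between libraries. Detection of a change was required there only for piRNAs with at least 50 reads over both libraries. mmu_piR_035888 had 17. Alternatives were other scalings, tag filters and read minimums.

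The members and lists were chosen with earlier results of these data known. piRNAs named are the 3 members, the 2 nearest to each in log2 ratio, the most abundant, and those with the highest and lowest leading 5′ share among hairpin and snoRNA piRNAs with at least 20 reads in each library. mmu_piR_027673, mmu_piR_039147 and mmu_piR_000273 were named after seeing the data, as examples of ends outside those ranges or below that minimum. Software was Python 3.11.15, scipy 1.17.1, R 4.3.3, edgeR 4.0.16 and DESeq2 1.42.0, the last 2 for scale factors only.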

Additional observations from a re-analysis of the deposited data

How the results depend on the processing

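No paired analysis was possible because there is only 1 library a group. Of 75 planned values, 54 were counted as kept and 19 as moved, and 2 more lost an interval without 1. Among the moved, the CPM ratio of mmu_piR_028252 with TMM and with DESeq2 lost it as well. Many of the 54 could not have changed, so their number does not measure stability. Kept means a value inside the reported interval. For a mean length it means within 1 SD of the read lengths, and for a count of piRNAs within 1.5 times. The CPM ratio of mmu_piR_028252, 0.852, became 1.12 with TMM, 1.11 with DESeq2, 1.22 without the most abundant piRNA and 1.36 without the 10 most abundant. The factors 0.167 and 0.108 between mmu_piR_035888 and the other two became 0.286 and 0.214 with the most abundant tags only, which leaves fewer reads. Counting each tag once, the leading 3′ share became 25% in both libraries for mmu_piR_028252, 66.7% for mmu_piR_035888 and 50% for mmu_piR_010309 in the exposed library, and the mean length of the last 20 nt. Without tags of 1 read the 3′ share of mmu_piR_035888 in the exposed library was 100%. Several filters removed nothing. mmu_piR_028252 and mmu_piR_010309 had no tag of 1 read, and the control reads of mmu_piR_035888 were a single tag. mmu_piR_035888 and mmu_piR_010309 had no tag 3 nt shorter than the entry. For mmu_piR_028252 and mmu_piR_010309 a single start was listed, so the alternatives could not change the leading 5′ share and say nothing of its stability. For mmu_piR_035888 in the exposed library it was 66.7 to 73.3%. Calls were 3 higher and 8 lower, 5 and 3 with TMM or DESeq2, 5 and 2 with either reduced total, 4 and 9 with a minimum of 1 read, and 2 and 5 with at least 50 reads, where mmu_piR_035888 is no longer tested. Depth limits mmu_piR_035888 and mmu_piR_010309 throughout, and forms that reach outside the piRNA were not measured.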
